A study of Homo sapiens with 36 samples.

Results

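TAL1 siPool 1 in HEL cells is the arm of the study in which a first pool of small interfering RNAs (siRNAs) against TAL1 was set against a non-targeting siRNA pool in the HEL cell line. It was chosen by its labels: the 3 HEL libraries labelled TAL1 siPool 1 were compared with the 3 HEL libraries labelled as the non-targeting control, 6 of the 36 samples of the series. HEL is an established human erythroleukaemia line with an activating JAK2 mutation that carries erythroid and megakaryocytic features; it stands here as 1 cell line. All 9 HEL libraries were poly(A) RNA from cells that had been electroporated, with TAL1 siPool 1, with TAL1 siPool 2 or with the non-targeting pool, and each group was given as bio rep 1, 2 and 3. The siRNA sequences, the dose and the time from electroporation to harvest are not stated in the labels. The labels do not say that bio reps were separate cultures, so every p-value below measures the spread between these libraries, which may be technical.

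TAL1 is a basic helix-loop-helix transcription factor. It pairs with an E protein to bind an E-box, and LMO2 and LDB1 bridge that pair to a GATA factor on nearby DNA. In erythroid and megakaryocytic cells this complex is best known for activating globin, heme and red cell membrane genes, and with corepressors it also holds some genes down.

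TAL1 fell in every siPool 1 library. It stood at 165, 191 and 182 CPM (counts on a per-million scale, after TMM correction of library size) in siPool 1 libraries, at 179.6, 190.5 and 195 CPM in siPool 2 libraries and at 439, 469 and 491 CPM in non-targeting libraries. The siPool 1 and non-targeting libraries did not overlap, and the mean was 179 ± 12.8 CPM with siPool 1 against 466 ± 26.2 CPM with the non-targeting pool (SD, n = 3 each). The log2 change was -1.38 ± 0.06 (standard error, adjusted p = 1.01e-16). Paired by bio rep, siPool 1 left 37.7%, 40.6% and 37% of the TAL1 level, and siPool 2 left 40.9%, 40.6% and 39.7%. The difference between the pools in TAL1 itself was -0.07 on the log2 scale and did not pass the test (adjusted p = 0.445). In bulk RNA, a lower level in all cells and a loss in some of the cells cannot be told apart, here and for every gene below.

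PHLDA1 and EVI2B were named beside TAL1 as markers of this arm with earlier results of these data known. PHLDA1, a pleckstrin homology-like protein known as a gene induced through ERK signalling, stood at 17, 23 and 22 CPM in siPool 1 libraries, 7.3, 6.04 and 6.62 CPM in siPool 2 libraries and 5.03, 4.01 and 2.96 CPM in non-targeting libraries. Its log2 change was 2.37 ± 0.17 (adjusted p = 3.23e-11), and the groups did not overlap. With siPool 2 the log2 change was 0.73, and the difference between the pools was 1.63 (adjusted p = 4.47e-08). EVI2B, a membrane protein of leukocytes, stood at 7.16, 10.1 and 8.4 CPM in siPool 1 libraries, 1.32, 1.33 and 1.35 CPM in siPool 2 libraries and 1.24, 0.811 and 0.515 CPM in non-targeting libraries. All siPool 1 libraries stood above all the others. The log2 change was 3.30 ± 0.27 with siPool 1 (adjusted p = 3.63e-10), against 0.62 with siPool 2 (adjusted p = 0.239), with a tested difference of 2.68 (adjusted p = 2.10e-08). EVI2B lies inside an intron of NF1 on the other strand, and no label states whether reads were counted by strand. NF1 itself stood at 141, 139 and 156 CPM in siPool 1 libraries and 147, 136 and 144 CPM in non-targeting libraries, with a log2 change of 0.03 (adjusted p = 0.834).

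**Figure D1:**
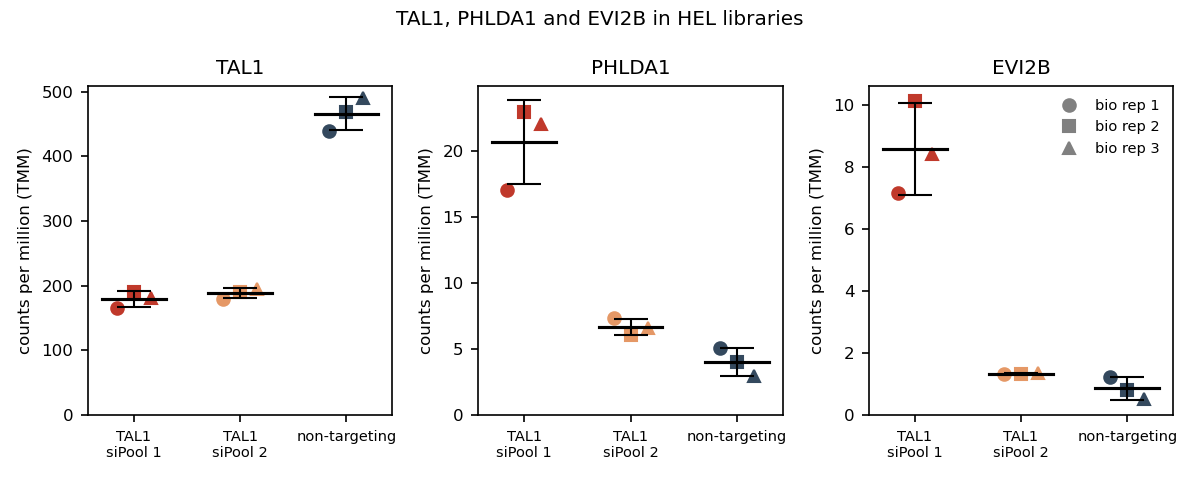
Level of TAL1, PHLDA1 and EVI2B in each of the 9 HEL libraries, in CPM on linear axes from 0, with points shaped by bio rep, the group mean as a long bar and the SD as whiskers (n = 3 libraries a group). TAL1 is low with both TAL1 pools, while PHLDA1 and EVI2B are higher in each siPool 1 library than in any siPool 2 or non-targeting library.

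The 9 libraries held 15869619 to 27029836 counts, with 21104001 to 22801297 in siPool 1 libraries, 15869619 to 25381916 in siPool 2 libraries and 23355989 to 27029836 in non-targeting libraries. Of the 57820 genes in the table, 16688 had enough counts to be tested. The erythroid factor KLF1 averaged 42.9 CPM in siPool 1 libraries and 59.4 CPM in non-targeting libraries, and the megakaryocytic marker ITGA2B averaged 1082 CPM in siPool 1 libraries and 995 CPM in non-targeting libraries. Of the red cell genes, SLC4A1 had 3 counts, AHSP 8 and HBM 4 over all 9 libraries. Several markers of other cell types were also near 0 over the 9 libraries, with 37 counts of CD14, 4 of MPO, 0 of ELANE, 4 of CD3E, 0 of MS4A1, 28 of COL1A1 and 2 of COL1A2. The endothelial markers KDR, at 44.9 CPM on average in siPool 1 libraries and 25.3 CPM in non-targeting libraries, and CDH5, at 13.2 CPM in siPool 1 libraries and 13.3 CPM in non-targeting libraries, were present, and their source was not tested. Bio rep 1 stood apart from bio reps 2 and 3 in all 3 groups: over 9632 genes, deviations from the group mean correlated at 0.63 to 0.77 between libraries numbered 1, at 0.36 to 0.41 between libraries of the same number for 2 and 3, at 0.34 to 0.6 between number 2 and number 3, and at -0.66 to -0.46 between number 1 and the others. The bio rep number was a term of the fit, and without bio rep 1 the count of genes called below was 2559.

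Of the 16688 genes tested, 2888 (17.3%) were called at an adjusted p under 0.05 in edgeR's quasi-likelihood test between siPool 1 and the non-targeting pool. Of these, 1417 (8.49% of genes tested) were higher and 1471 (8.81%) were lower with siPool 1. Most changes were small: the median size among called genes was 1.3-fold, and 168 genes were at least 2-fold higher and 98 at least 2-fold lower. For 2858 of the 2888 called genes (99%) all 3 bio rep pairs had 1 sign, and for 2121 (73.4%) the siPool 1 and non-targeting libraries did not overlap, against 23% of all genes tested. The calls were made from these same libraries, so neither the 99% nor the 73.4% is a separate check of them. The same fit called 1694 genes (10.2%) between siPool 2 and the non-targeting pool, of which 78 were at least 2-fold higher and 33 at least 2-fold lower. Between siPool 1 and siPool 2 it called 2431 genes (14.6%), 1248 higher and 1183 lower with siPool 1. Both pools were compared with the same non-targeting libraries, so their values are given side by side and the direct test between the pools is given where a difference is stated. Without the bio rep term 704 genes were called, 428 of them higher, and without bio rep 2 in every group 1507 were called. Leaving out 1 library gave 1872 to 2761 calls, the lowest without non-targeting bio rep 3 and the next, 1924, without siPool 1 bio rep 2.

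**Figure D2:**
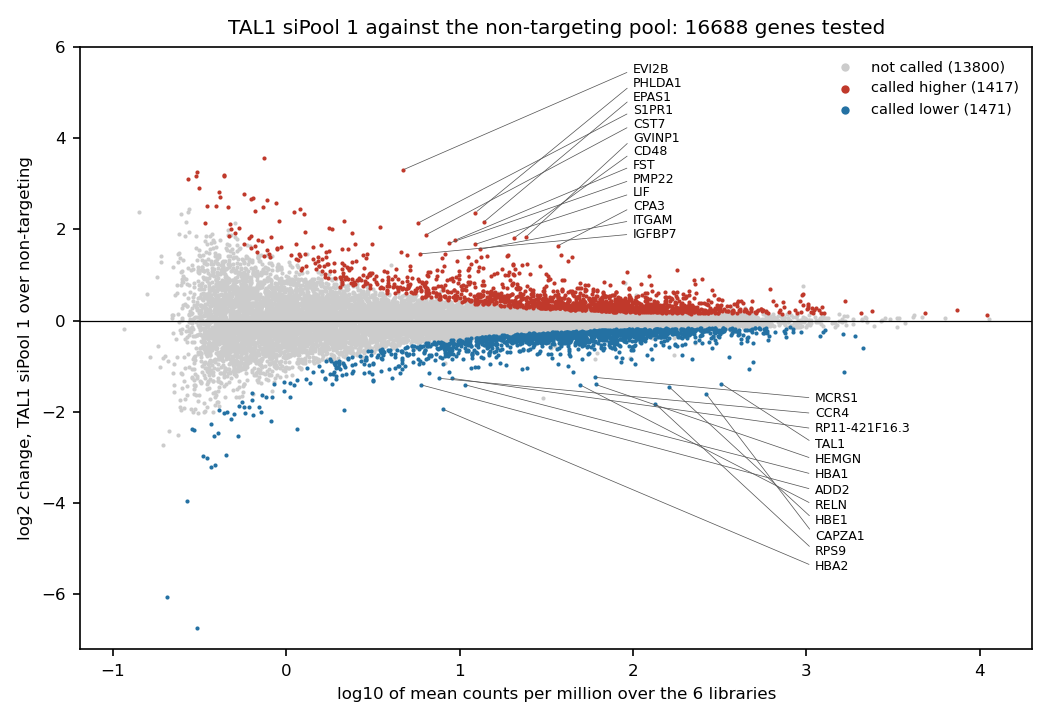
Log2 change with TAL1 siPool 1 over the non-targeting pool (y axis) against the log10 mean CPM over the 6 libraries (x axis) for 16688 genes, with called genes in red (1417 higher) and blue (1471 lower). TAL1, PHLDA1, EVI2B and the 12 largest rises and falls among called genes of at least 5 CPM are named.

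The genes that fell most included globins and other red cell genes beside TAL1 and 6 genes outside those groups (RPS9, CAPZA1, RELN, RP11-421F16.3, CCR4 and MCRS1). Among called genes with a mean of at least 5 CPM and 1 sign in all pairs, the 12 largest falls were HBA2, RPS9, CAPZA1, HBE1, RELN, ADD2, HBA1, HEMGN, TAL1, RP11-421F16.3, CCR4 and MCRS1. HEMGN, which encodes the erythroid nuclear protein hemogen, stood at 34.7, 36.3 and 29.2 CPM in siPool 1 libraries, 54.2, 55.6 and 56.1 CPM in siPool 2 libraries and 78, 94.5 and 92.2 CPM in non-targeting libraries. Its log2 change was -1.40 ± 0.08 with siPool 1 and -0.67 with siPool 2, and it was lower with siPool 1 than with siPool 2 (log2 difference -0.73, adjusted p = 6.39e-07). RELN, which encodes the secreted glycoprotein reelin, stood at 29.1, 24.6 and 27.7 CPM in siPool 1 libraries, 52.5, 51.3 and 48 CPM in siPool 2 libraries and 86, 63.2 and 68.3 CPM in non-targeting libraries. The siPool 1 libraries lay below all the others, and the log2 change was -1.41 ± 0.09 (adjusted p = 1.24e-12). The chemokine receptor CCR4 was lower with both pools (log2 change -1.26 ± 0.19 with siPool 1 and -0.96 with siPool 2). RPS9, a protein of the small ribosomal subunit, stood at 52.6, 60.5 and 58.2 CPM in siPool 1 libraries, 53, 68.3 and 66.9 CPM in siPool 2 libraries and 117, 261 and 255 CPM in non-targeting libraries. All siPool 1 libraries lay below all non-targeting libraries, of which bio rep 1 was the lowest. The log2 change was -1.82 ± 0.24 (adjusted p = 0.011), and the call was lost without siPool 1 bio rep 2 (adjusted p = 0.062), without siPool 1 bio rep 3 (0.071), without bio rep 2 (0.066) or bio rep 3 (0.159) in every group and in the 6 libraries alone (0.097), with log2 changes of -1.80 to -1.66 in these 5 settings. The 28 ribosomal protein genes of a list described below, which leaves out RPS9, held no call.

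The genes that rose most included genes of white blood cells, mast cells, cell adhesion and secreted factors. PHLDA1 led the 12 largest rises under the same rule, followed by EPAS1, S1PR1, CST7, GVINP1, CD48, FST, PMP22, LIF, CPA3, ITGAM and IGFBP7, while EVI2B averaged under 5 CPM over the 6 libraries. EPAS1, the hypoxia-inducible factor HIF-2 alpha, stood at 25.5, 20.3 and 21.6 CPM in siPool 1 libraries, 12.9, 12.9 and 10.2 CPM in siPool 2 libraries and 5.33, 3.97 and 5.79 CPM in non-targeting libraries, a log2 change of 2.16 ± 0.14 (adjusted p = 6.68e-12). It rose with siPool 2 as well, by 1.26, and was 0.90 higher with siPool 1 than with siPool 2 (adjusted p = 2.65e-05). S1PR1, the receptor through which lymphocytes sense sphingosine 1-phosphate, stood at 11.6, 8.6 and 8.07 CPM in siPool 1 libraries, 3.67, 2.71 and 2.69 CPM in siPool 2 libraries and 2.44, 1.79 and 2.14 CPM in non-targeting libraries (log2 change 2.14 ± 0.20). CST7, the cysteine protease inhibitor cystatin F of immune cells, stood at 7.34, 9.72 and 13.1 CPM in siPool 1 libraries, 6.99, 17 and 16.3 CPM in siPool 2 libraries and 1.73, 3.88 and 2.7 CPM in non-targeting libraries. It was high with both pools, with log2 changes of 1.88 with siPool 1 and 2.24 with siPool 2, and the pools did not differ past the threshold (adjusted p = 0.162).

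Among the largest rises, FST, PMP22 and LIF encode proteins that act outside the cell or on its membrane and were higher with siPool 1 than with siPool 2. FST, follistatin, which binds activin, stood at 17.1, 12.7 and 14 CPM in siPool 1 libraries, 6.23, 4.04 and 2.76 CPM in siPool 2 libraries and 4.92, 2.86 and 5.19 CPM in non-targeting libraries, with a log2 change of 1.77 ± 0.19 with siPool 1 and 0.02 with siPool 2. PMP22, a membrane protein best known from myelin, stood at 15.9, 13 and 11 CPM in siPool 1 libraries, 5.51, 3.07 and 3.55 CPM in siPool 2 libraries and 4.77, 4.35 and 3.17 CPM in non-targeting libraries. LIF, a cytokine of the interleukin 6 family, stood at 20.1, 21.5 and 14.4 CPM in siPool 1 libraries, 7.62, 7.98 and 8.21 CPM in siPool 2 libraries and 6.2, 6.23 and 5.06 CPM in non-targeting libraries. For each of the 3 genes the siPool 1 libraries stood above all the others (log2 difference 1.75 for FST, 1.72 for PMP22 and 1.23 for LIF between siPool 1 and siPool 2, all called). GVINP1, a pseudogene of an interferon-inducible GTPase family, rose by 1.83 ± 0.12, and IGFBP7, a secreted insulin-like growth factor binding protein, by 1.46 ± 0.20 on the log2 scale.

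Promoter letters are shown for 3 of the genes that rose and 2 that fell, since the TAL1 complex reads E-boxes and GATA sites. They cover the 250 bases before the gene's start in RefSeq (GRCh38.p14), 5′ to 3′ on the gene's strand, with capitals for any match on either strand. A GATA match is AGATAA, and TGATAA was accepted as well. An E-box match is CAGCTG, with CAGATG taken too and CAGGTG also allowed. PHLDA1 lies at chr12:76031777-76032026 (minus strand), CD48 at chr1:160711823-160712072 (minus strand), CPA3 at chr3:148865046-148865295 (plus strand), HEMGN at chr9:97944853-97945102 (minus strand) and ALAS2 at chrX:55030978-55031227 (minus strand).
PHLDA1: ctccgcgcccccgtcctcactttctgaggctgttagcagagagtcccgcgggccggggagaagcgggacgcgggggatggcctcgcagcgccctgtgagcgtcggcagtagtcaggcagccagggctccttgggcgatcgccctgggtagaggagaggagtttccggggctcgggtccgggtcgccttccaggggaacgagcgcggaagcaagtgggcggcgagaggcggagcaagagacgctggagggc
CD48: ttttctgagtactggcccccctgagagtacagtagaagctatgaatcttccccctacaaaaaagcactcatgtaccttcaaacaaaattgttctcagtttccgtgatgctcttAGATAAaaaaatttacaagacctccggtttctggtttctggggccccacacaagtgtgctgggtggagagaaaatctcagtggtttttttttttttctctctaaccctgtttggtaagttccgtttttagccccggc
CPA3: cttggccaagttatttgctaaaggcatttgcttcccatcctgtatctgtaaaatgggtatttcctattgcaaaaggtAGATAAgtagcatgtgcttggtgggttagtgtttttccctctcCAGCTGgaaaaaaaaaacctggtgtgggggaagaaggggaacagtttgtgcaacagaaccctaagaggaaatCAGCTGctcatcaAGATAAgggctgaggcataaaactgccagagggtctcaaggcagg
HEMGN: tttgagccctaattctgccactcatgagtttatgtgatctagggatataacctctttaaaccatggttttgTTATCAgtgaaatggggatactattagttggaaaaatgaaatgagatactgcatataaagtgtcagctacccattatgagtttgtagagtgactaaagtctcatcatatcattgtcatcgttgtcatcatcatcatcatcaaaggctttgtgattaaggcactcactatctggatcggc
ALAS2: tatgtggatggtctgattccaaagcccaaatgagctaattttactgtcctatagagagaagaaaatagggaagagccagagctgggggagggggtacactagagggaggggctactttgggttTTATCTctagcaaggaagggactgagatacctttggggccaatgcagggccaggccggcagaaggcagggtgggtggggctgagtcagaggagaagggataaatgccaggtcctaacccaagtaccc
CPA3 held 2 GATA matches and 2 E-box matches, CD48, HEMGN and ALAS2 held 1 GATA match each, and PHLDA1 held none of these letters. Over all 27305 RefSeq promoters of that length, 14.9% held a GATA match and 36.9% an E-box match. A match is a run of letters and not a measured binding site, and no binding data are part of this comparison.

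Most globin genes fell. Of 9 globin genes tested, 6 (66.7%, against 17.3% of all genes tested called in either direction) were called lower and 0 higher with siPool 1, with a median log2 change of -1.13 against -0.02 over all genes tested. HBG2, a fetal globin chain and the globin of highest count here, stood at 1034, 1207 and 883 CPM in siPool 1 libraries, 1219, 1336 and 1168 CPM in siPool 2 libraries and 2116, 2274 and 2412 CPM in non-targeting libraries. HBE1, the embryonic epsilon chain, stood at 92.6, 87.6 and 78.6 CPM in siPool 1 libraries, 85.3, 104 and 94.4 CPM in siPool 2 libraries and 207, 242 and 259.7 CPM in non-targeting libraries. Neither gene's siPool 1 libraries overlapped the non-targeting libraries, and the log2 changes were -1.13 ± 0.07 for HBG2 and -1.45 ± 0.08 for HBE1 (adjusted p = 3.40e-10 and 3.12e-13). The alpha globin genes HBA1 and HBA2 changed by -1.40 ± 0.16 and -1.94 ± 0.24 at low levels, with 8.11, 5.26 and 4.44 CPM of HBA1 in siPool 1 libraries against 15.6, 15.2 and 15.8 CPM in non-targeting libraries. HBA1 and HBA2 are near-identical copies, as are HBG1 and HBG2, so reads can be split between them uncertainly. HBQ1 and HBZ were the other called falls, at -1.003 and -2.19, both under 6 CPM on average in every group. HBG1 (-0.82, adjusted p = 0.12), HBB (-0.20) and HBD (0.32) did not pass. With siPool 2, 5 of the 9 were called lower, and HBG2 was lower with siPool 1 than with siPool 2 (log2 difference -0.26, adjusted p = 0.0153). The number called lower was 4 without non-targeting bio rep 2.

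Heme synthesis genes fell in part. Of 16 genes of heme synthesis and mitochondrial iron, 8 were called lower and 1 higher (56.2% called, against 17.3% of all genes tested, median -0.21). ALAS2, the erythroid form of the first enzyme of heme synthesis, stood at 15.9, 15.7 and 12.3 CPM in siPool 1 libraries, 9.9, 14.7 and 16.5 CPM in siPool 2 libraries and 23.7, 32.4 and 38 CPM in non-targeting libraries (log2 change -1.06 ± 0.15). ALAS1, the form used in all tissues, was the called rise, at 0.25, and it was the only list member called higher and was not called when siPool 1 bio rep 2 or 3 or non-targeting bio rep 2 or 3 was left out. UROD, the uroporphyrinogen decarboxylase, stood at 282, 269 and 236 CPM in siPool 1 libraries, 372, 401 and 400.3 CPM in siPool 2 libraries and 458, 461 and 447 CPM in non-targeting libraries, and was lower with siPool 1 than with siPool 2 (log2 difference -0.58, adjusted p = 7.54e-08). ABCB10, a mitochondrial transporter, changed by -0.44. Without the bio rep term 4 were called lower. Of 13 genes of iron handling, 2 rose, among them the iron exporter SLC40A1 (0.45 ± 0.06), and 3 fell (38.5% called). The falls included transferrin, TF (-0.57), and the iron sensor IREB2 (-0.30). The TF libraries overlapped between siPool 1 and the non-targeting pool. Without non-targeting bio rep 2, 1 iron gene was called higher. Without the bio rep term 1 iron gene was called higher and 0 lower, with TF at an adjusted p of 0.25 and IREB2 at 0.14.

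Most red cell membrane and surface genes fell. Of 24 tested, 15 were called lower and 0 higher (62.5% called), with a median of -0.30. The siPool 1 and non-targeting libraries did not overlap for 18 of the 24, and for 23% of all genes tested. ADD2, the beta subunit of adducin in the membrane skeleton, stood at 4.21, 3.21 and 2.46 CPM in siPool 1 libraries and 8.9, 7.94 and 9.13 CPM in non-targeting libraries (log2 change -1.41 ± 0.19). EPB42, protein 4.2 of the red cell membrane, stood at 90.5, 97.5 and 90.04 CPM in siPool 1 libraries, 135, 144 and 146 CPM in siPool 2 libraries and 151, 184 and 164 CPM in non-targeting libraries. RHD, the Rh blood group antigen, stood at 51.9, 66.1 and 59.5 CPM in siPool 1 libraries, 60.1, 80.9 and 85.4 CPM in siPool 2 libraries and 87.9, 128 and 120.2 CPM in non-targeting libraries. EPB42 (-0.84) and RHD (-0.91) were both lower with siPool 1 than with siPool 2 (adjusted p = 6.04e-08 and 0.0015). The scavenger receptor CD36 fell less with siPool 1 than with siPool 2: its log2 change was -0.48 with siPool 1 and -0.71 with siPool 2 (adjusted p of the difference = 0.0063). The tetraspanin TSPAN33 changed by -0.95 ± 0.10. With siPool 2, 14 of the 24 were called lower and 1 higher. The count with siPool 1 was 9 without bio rep 2 in every group and 8 without the bio rep term.

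The regulators of the erythroid programme moved in both directions. Of 14 erythroid transcription factor genes, 4 fell and 3 rose (50% called, against 17.3% of all genes tested). ZFPM1, the GATA1 cofactor FOG1, stood at 32.2, 26.5 and 26.1 CPM in siPool 1 libraries, 44.1, 46.6 and 60.3 CPM in siPool 2 libraries and 39, 51.2 and 51.9 CPM in non-targeting libraries. NFE2, a leucine zipper factor of globin and platelet genes, stood at 177, 142 and 114 CPM in siPool 1 libraries, 201, 196 and 196 CPM in siPool 2 libraries and 216, 204 and 197 CPM in non-targeting libraries. Their log2 changes were -0.73 ± 0.12 and -0.52 ± 0.08 with siPool 1, against 0.08 and -0.06 with siPool 2, and both were lower with siPool 1 than with siPool 2 (log2 difference -0.82 for ZFPM1, adjusted p = 6.67e-05, and -0.47 for NFE2, adjusted p = 1.99e-04). KLF1, the erythroid Krueppel-like factor, changed by -0.48 ± 0.09 and the repressor GFI1B by -0.32 ± 0.06, and the difference between the pools did not pass the test for KLF1 (adjusted p = 0.521) or GFI1B (adjusted p = 0.986). The number called higher was 0 without non-targeting bio rep 1 or non-targeting bio rep 2, and 1 without siPool 1 bio rep 2.

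Among 20 genes of the TAL1 complex and its partners, TAL1 and 3 others fell and 3 rose (35% called, TAL1 included, against 17.3% of all genes tested). GATA1, the main erythroid GATA factor, stood at 83.5, 90.9 and 68.6 CPM in siPool 1 libraries, 92.2, 99.5 and 107 CPM in siPool 2 libraries and 101, 112 and 115 CPM in non-targeting libraries. GATA2, the GATA factor of progenitors and mast cells, stood at 1033, 1104 and 1046 CPM in siPool 1 libraries, 857, 1026 and 1102 CPM in siPool 2 libraries and 736, 963 and 840.4 CPM in non-targeting libraries. GATA1 fell (-0.43 ± 0.08, adjusted p = 2.64e-04) and GATA2 rose (0.33 ± 0.06, adjusted p = 1.82e-04), and GATA1 was lower with siPool 1 than with siPool 2 (log2 difference -0.30, adjusted p = 0.0125). ID2, which sequesters E proteins, rose by 0.42 ± 0.07. LMO2 (-0.07), LDB1 (0.03), TCF3 (0.03) and TCF12 (0.12), the bridging proteins and E proteins of the complex, did not pass the test. LYL1, the paralogue of TAL1, was called lower at -0.25. The number called lower, TAL1 included, was 2 without siPool 1 bio rep 2, siPool 1 bio rep 3 or non-targeting bio rep 3. Without the bio rep term 2 were called lower and 0 higher, with GATA2 at an adjusted p of 0.12 and ID2 at 0.17.

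Genes near TAL1 on chromosome 1 were also measured. Of 10 neighbours, 5 had enough counts to be tested, and 5 (FOXE3, CYP4Z1, CYP4A22, CYP4A11 and CYP4B1) had 0 to 40 counts over all 9 libraries. STIL, a centriole gene, stood at 110.4, 98.9 and 96.5 CPM in siPool 1 libraries and 133, 111 and 121 CPM in non-targeting libraries (log2 change -0.26, adjusted p = 0.0043). CMPK1, a nucleotide kinase, stood at 423, 390.2 and 383 CPM in siPool 1 libraries and 386, 319.7 and 333 CPM in non-targeting libraries (log2 change 0.21). FOXD2 was called lower at -1.01 with a mean of 1.3 CPM with siPool 1 against 2.68 CPM with the non-targeting pool, and lost its call without siPool 1 bio rep 2 (adjusted p = 0.14), without siPool 1 bio rep 3 (0.071) or without non-targeting bio rep 2 (0.25). CMPK1 lost its call without siPool 1 bio rep 2 (adjusted p = 0.096), siPool 1 bio rep 3 (0.075) or non-targeting bio rep 2 (0.13). PDZK1IP1 (-0.50) and CYP4X1 (-0.37) did not pass. Without the bio rep term 0 neighbours were called in either direction, and STIL was at an adjusted p of 0.21.

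**Figure D3:**
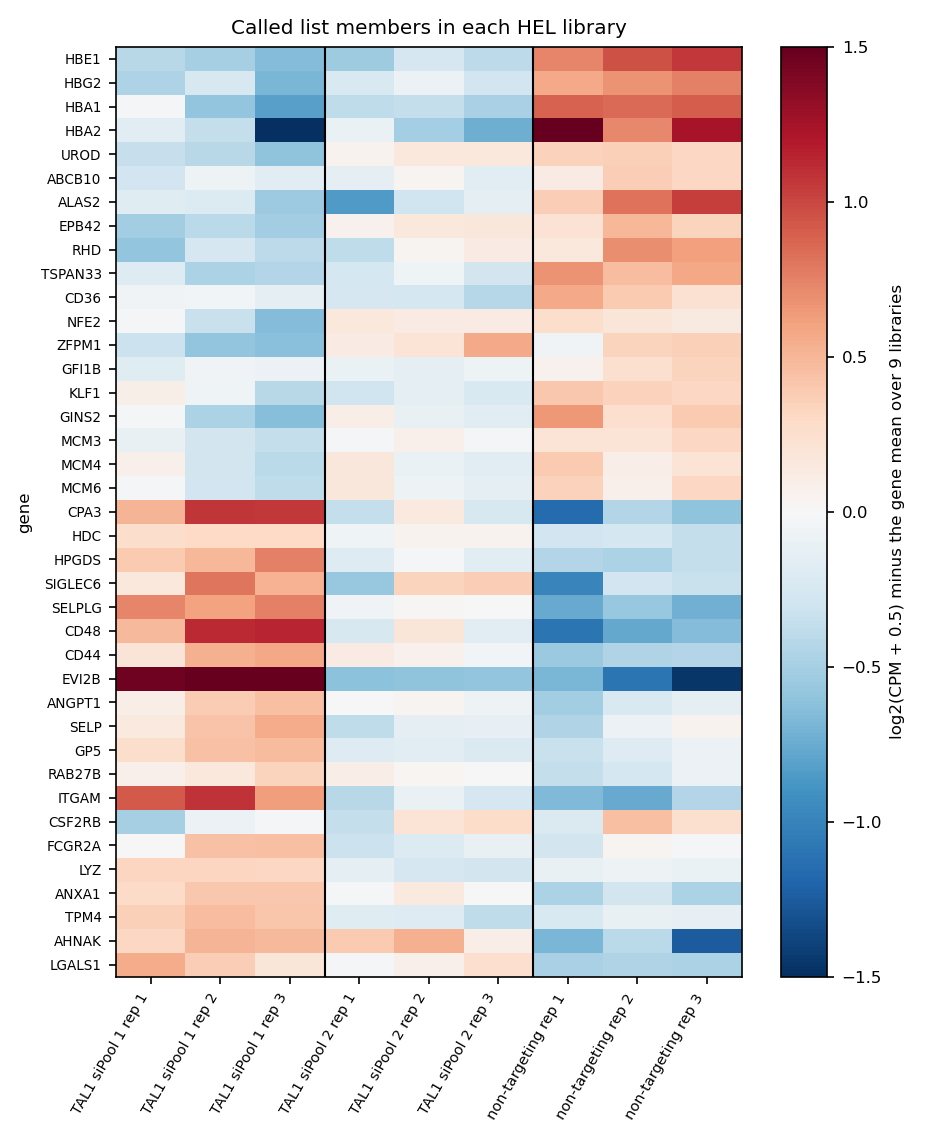
Level of 39 called list members (rows) in each of the 9 HEL libraries (columns: TAL1 siPool 1, TAL1 siPool 2, non-targeting), as log2(CPM + 0.5) minus the gene's mean over the 9 libraries, with colours limited at ±1.5. Rows were taken from called members with the smallest adjusted p between siPool 1 and the non-targeting pool, up to 4 a list. A difference between those 2 groups is therefore built into the choice of rows. The globin, heme and membrane genes drawn are low and the pan-leukocyte and mast cell genes drawn are high in the 3 siPool 1 libraries relative to the non-targeting libraries.

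Most pan-leukocyte genes rose. Of 22 pan-leukocyte genes tested, 16 were called higher and 0 lower with siPool 1 (72.7% called, median 0.38). CD48, a surface protein of the SLAM family, stood at 23.3, 36.3 and 36.9 CPM in siPool 1 libraries, 13.9, 18.8 and 14.7 CPM in siPool 2 libraries and 7.44, 9.48 and 10.3 CPM in non-targeting libraries. SELPLG, the ligand of P-selectin, stood at 66.3, 60.5 and 67.3 CPM in siPool 1 libraries, 38.3, 40.3 and 39.8 CPM in siPool 2 libraries and 23.4, 26.6 and 24 CPM in non-targeting libraries. CD44, the hyaluronan receptor, stood at 276, 349.97 and 361 CPM in siPool 1 libraries, 263, 252 and 235 CPM in siPool 2 libraries and 164, 177 and 178 CPM in non-targeting libraries. For all 3 the order was siPool 1, then siPool 2, then the non-targeting pool, with no overlap between siPool 1 and the non-targeting pool. The log2 changes with siPool 1 were 1.81 ± 0.12 for CD48, 1.39 ± 0.09 for SELPLG and 0.92 ± 0.07 for CD44. Each exceeded that with siPool 2 (adjusted p of the difference 4.90e-07, 6.61e-07 and 3.27e-04). With siPool 2, 5 of the 22 were called higher and 1 lower, and 14 of the 22 were called higher with siPool 1 than with siPool 2. The summed level of the list was 5924 to 6281 CPM in siPool 1 libraries, 5102 to 5406 CPM in siPool 2 libraries and 4669 to 5147 CPM in non-targeting libraries. The lymphoid and myeloid markers CD3E, MS4A1, MPO, ELANE and CD14 stood at 0 to 37 counts over all 9 libraries, while 3 of 10 lymphoid and 7 of 19 monocyte and granulocyte genes tested were called higher, as given below. The part of other cells in these levels was not tested.

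Some mast cell genes rose. Of 13 mast cell and basophil genes tested, 6 were called higher and 0 lower (46.2% called, median 0.50). CPA3, the mast cell carboxypeptidase, stood at 42.3, 62.5 and 61.9 CPM in siPool 1 libraries, 22.8, 32.7 and 24.9 CPM in siPool 2 libraries and 13, 21.5 and 19.3 CPM in non-targeting libraries (log2 change 1.64 ± 0.10, adjusted p = 8.37e-13). HDC, which makes histamine, stood at 1123, 1152 and 1147 CPM in siPool 1 libraries, 892, 966 and 968 CPM in siPool 2 libraries and 768, 778 and 728 CPM in non-targeting libraries. HPGDS, the hematopoietic prostaglandin D synthase, stood at 24.5, 26.3 and 31.6 CPM in siPool 1 libraries, 16.1, 18.1 and 16.5 CPM in siPool 2 libraries and 13.6, 13.2 and 14.3 CPM in non-targeting libraries. All 3 were higher in every siPool 1 library than in any other HEL library. The log2 changes of HDC, HPGDS and the sialic acid-binding receptor SIGLEC6 were 0.59, 1.000 and 1.11. The receptor chain FCER1A (0.08) and the transcription factor MITF (-0.09) did not pass, and neither did the tryptase genes TPSAB1 (1.94 CPM on average in siPool 1 libraries and 1.09 CPM in non-targeting libraries) and TPSB2. The summed level of the list was 2535 to 2683 CPM in siPool 1 libraries, 2018 to 2106 CPM in siPool 2 libraries and 2012 to 2128 CPM in non-targeting libraries.

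Myeloid genes moved in both directions. Of 19 monocyte and granulocyte genes tested, 7 rose and 2 fell (47.4% called, against 17.3% of all genes tested). On the full list, 12 of the 31 had too few counts to be tested. ITGAM, the integrin alpha M chain of phagocytes, stood at 20.2, 22.6 and 16.4 CPM in siPool 1 libraries, 7.66, 9.67 and 8.64 CPM in siPool 2 libraries and 6.39, 5.98 and 7.55 CPM in non-targeting libraries (log2 change 1.57 ± 0.15). LYZ, lysozyme, stood at 36.5, 36.4 and 36.1 CPM in siPool 1 libraries and 26.7, 27.5 and 27.1 CPM in non-targeting libraries (log2 change 0.42). CSF2RB, the shared receptor chain of interleukin 3 and GM-CSF, fell (log2 change -0.37), with libraries that overlapped between siPool 1 and the non-targeting pool. The Fc receptor FCGR2A rose by 0.38 ± 0.07. The related genes FCGR2B and FCGR2C, which are near-identical to each other and were added after their values were seen, changed by 1.25 and 1.30, and reads cannot be divided between them with certainty. The myeloid regulator SPI1 (-0.17) did not pass. The number called lower was 1 without siPool 1 bio rep 2, non-targeting bio rep 1 or non-targeting bio rep 2. The summed level of the list overlapped between the groups, at 624 to 745 CPM in siPool 1 libraries, 575 to 712 CPM in siPool 2 libraries and 582 to 776 CPM in non-targeting libraries.

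Megakaryocyte and platelet genes rose more often than they fell, without a common direction. Of 30 tested, 10 were called higher and 3 lower (43.3% called, against 17.3% of all genes tested, median 0.15). ANGPT1, a vessel-stabilizing ligand carried by platelets, stood at 239, 292 and 306 CPM in siPool 1 libraries, 222, 230.2 and 212 CPM in siPool 2 libraries and 155, 190.4 and 201 CPM in non-targeting libraries. SELP, P-selectin, stood at 203, 247 and 269.97 CPM in siPool 1 libraries, 141, 167 and 168 CPM in siPool 2 libraries and 134, 173 and 189.7 CPM in non-targeting libraries. The log2 changes were 0.61 for ANGPT1, 0.54 for SELP, 0.60 for the von Willebrand receptor subunit GP5 and 0.43 for the granule transport GTPase RAB27B. SELP and GP5 were higher with siPool 1 than with siPool 2 (adjusted p = 4.47e-08 and 2.90e-06). The lineage markers ITGA2B (0.13), ITGB3 (-0.08) and PF4 (0.01) did not pass, and GP9 was called lower at -0.43. With siPool 2, 4 were called higher and 2 lower.

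Of 16 stem and progenitor genes, 9 had enough counts to be tested, as did 10 of 22 lymphoid, 11 of 14 endothelial and 4 of 12 stromal genes. Of the 9 stem and progenitor genes tested, 4 were called higher and 1 lower (55.6% called, against 17.3% of all genes tested). The progenitor marker CD34, whose call was lost when any 1 of 3 libraries was left out (adjusted p = 0.062 without siPool 1 bio rep 2, 0.063 without non-targeting bio rep 1 and 0.059 without non-targeting bio rep 2), stood at 9, 9.36 and 8.36 CPM in siPool 1 libraries and 5.86, 5.38 and 6.17 CPM in non-targeting libraries (log2 change 0.62, adjusted p = 0.0078). The number called higher was 2 without siPool 1 bio rep 3 and 1 without each of those 3 libraries, and the fall was not called without siPool 1 bio rep 1 or 2 or non-targeting bio rep 2 or 3. Without the bio rep term 0 stem and progenitor genes were called in either direction. Of 10 lymphoid genes tested, 3 were called higher (30% called), among them the interleukin 7 receptor IL7R (0.81 ± 0.11) and the cytotoxic granule gene NKG7 (1.66 ± 0.35), and 12 had too few counts. The summed lymphoid level was 61 to 65.2 CPM in siPool 1 libraries, 46.4 to 48.3 CPM in siPool 2 libraries and 37.6 to 49.9 CPM in non-targeting libraries. Of 11 endothelial genes, 3 rose and 2 fell (45.5% called), with the receptor KDR at 0.83 ± 0.11, TEK at 0.60 and CDH5 at 0.01, which did not pass. The endothelial falls numbered 0 without siPool 1 bio rep 2 or non-targeting bio rep 2 and 1 without siPool 1 bio rep 3. Of 4 stromal genes tested, THY1 was called higher (0.37) and 0 lower (25% called, against 17.3% of all genes tested).

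Most integrin and cytoskeleton genes rose. Of 19 integrin and adhesion genes tested, 11 were called higher and 1 lower (63.2% called, median 0.26). The number higher was 6 without bio rep 2 in every group and 1 without the bio rep term, and the fall was not called without siPool 1 bio rep 2, non-targeting bio rep 1 or non-targeting bio rep 2. ITGAL, the alpha L chain of LFA-1, stood at 9, 15.1 and 22 CPM in siPool 1 libraries, 5.99, 11 and 9.8 CPM in siPool 2 libraries and 4.81, 6.87 and 9.35 CPM in non-targeting libraries. The siPool 1 and non-targeting libraries overlapped, and within each bio rep siPool 1 was higher (log2 change 1.10 ± 0.15). ICAM1, which LFA-1 binds, changed by 0.88, ITGB7 by 0.91 and ITGA9 by 0.80. Of 24 genes of the actin cytoskeleton and the S100 and annexin families, 15 were called higher and 1 lower (66.7% called, median 0.29), and 13 were called higher with siPool 1 than with siPool 2. AHNAK, a giant scaffold protein, stood at 26, 29.9 and 29.4 CPM in siPool 1 libraries, 27.6, 30.4 and 22.5 CPM in siPool 2 libraries and 12.8, 15.6 and 8.53 CPM in non-targeting libraries. TPM4, a tropomyosin, stood at 1084, 1164 and 1127 CPM in siPool 1 libraries, 746, 740.1 and 652 CPM in siPool 2 libraries and 721, 781 and 776 CPM in non-targeting libraries. AHNAK was high with both pools (log2 change 1.23 with siPool 1 and 1.14 with siPool 2), while TPM4 was high with siPool 1 (0.57 ± 0.06) and differed from siPool 2 by 0.66 (adjusted p = 1.76e-09). ANXA1, annexin A1, and LGALS1, galectin 1, rose by 0.78 and 0.85. The cytoskeletal fall was not called without siPool 1 bio rep 1, siPool 1 bio rep 3 or non-targeting bio rep 3.

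Most replication genes fell. Of 30 S phase genes tested, 27 were called lower and 0 higher with siPool 1 (90% called, median -0.44), and all 30 estimates were negative. MCM3, a subunit of the replicative helicase, stood at 449.6, 402 and 379 CPM in siPool 1 libraries, 478, 509.6 and 477 CPM in siPool 2 libraries and 558, 557 and 599 CPM in non-targeting libraries. GINS2, which joins that helicase, stood at 31.3, 22.6 and 20.3 CPM in siPool 1 libraries, 34, 29.4 and 28.3 CPM in siPool 2 libraries and 49.9, 38 and 41.9 CPM in non-targeting libraries. The changes were modest, at -0.82 ± 0.09 for GINS2, -0.48 ± 0.06 for MCM3, -0.48 for MCM6 and -0.43 for MCM4. With siPool 2, 14 of the 30 were called lower, and 17 were called lower and 1 higher with siPool 1 than with siPool 2. Of 27 genes of G2 and M phase, 2 were called lower, the checkpoint kinase BUB1 (-0.44 ± 0.06) and BIRC5, survivin (-0.56 ± 0.08), and 0 higher (7.41% called, against 17.3% of all genes tested). The proliferation marker MKI67 (0.14) and TOP2A (0.13) did not pass. The S phase count was 23 to 28 with any 1 library left out and 8 without the bio rep term.

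Regulators of the G1 phase moved in both directions. Of 12 CDK inhibitors and G1 cyclins, 4 rose and 2 fell (50% called, against 17.3% of all genes tested). CCND1, cyclin D1, stood at 5.28, 8.47 and 7.51 CPM in siPool 1 libraries, 2.47, 2.35 and 2.51 CPM in siPool 2 libraries and 2.78, 2.82 and 4.29 CPM in non-targeting libraries (log2 change 1.11 ± 0.21), and was higher with siPool 1 than with siPool 2 (adjusted p = 1.97e-05). The CDK inhibitors CDKN2C (0.41) and CDKN1B (0.41) rose. The 2 falls, CCNE1 (-0.41) and CDK4 (-0.20), were not called without siPool 1 bio rep 2, siPool 1 bio rep 3, non-targeting bio rep 2 or non-targeting bio rep 3. Of 26 genes that serve MYC activity and ribosome assembly, 8 fell and 1 rose (34.6% called, median -0.09). The falls in that list numbered 4 without bio rep 2 in every group and 1 without the bio rep term. NCL, nucleolin, stood at 1966, 1579.7 and 1543 CPM in siPool 1 libraries, 2790.3, 2136 and 1945 CPM in siPool 2 libraries and 2922, 2335 and 2426 CPM in non-targeting libraries (log2 change -0.60 ± 0.05), and MYCN, a MYC paralogue, was the rise, at 0.97 with siPool 1 and 1.09 with siPool 2. Of 28 ribosomal protein genes, 0 were called by edgeR and 0 by DESeq2, with 0 at an unadjusted p under 0.05 in edgeR, a median of 0.02 and the member of highest level, RPL4, at 0.06. Of 21 nuclear genes of the respiratory chain, 6 fell and 0 rose (28.6% called), with NDUFA9 at -0.43 and SDHB at -0.36. Those falls numbered 3 without bio rep 2 in every group and 1 without the bio rep term. Of 13 mitochondrially encoded genes, 2 were called higher and 0 lower (15.4% called, against 17.3% of all genes tested). The mitochondrial rises numbered 4 without siPool 1 bio rep 1, 0 without siPool 1 bio rep 2 or 3 and 1 without non-targeting bio rep 1 or 3.

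**Figure D4:**
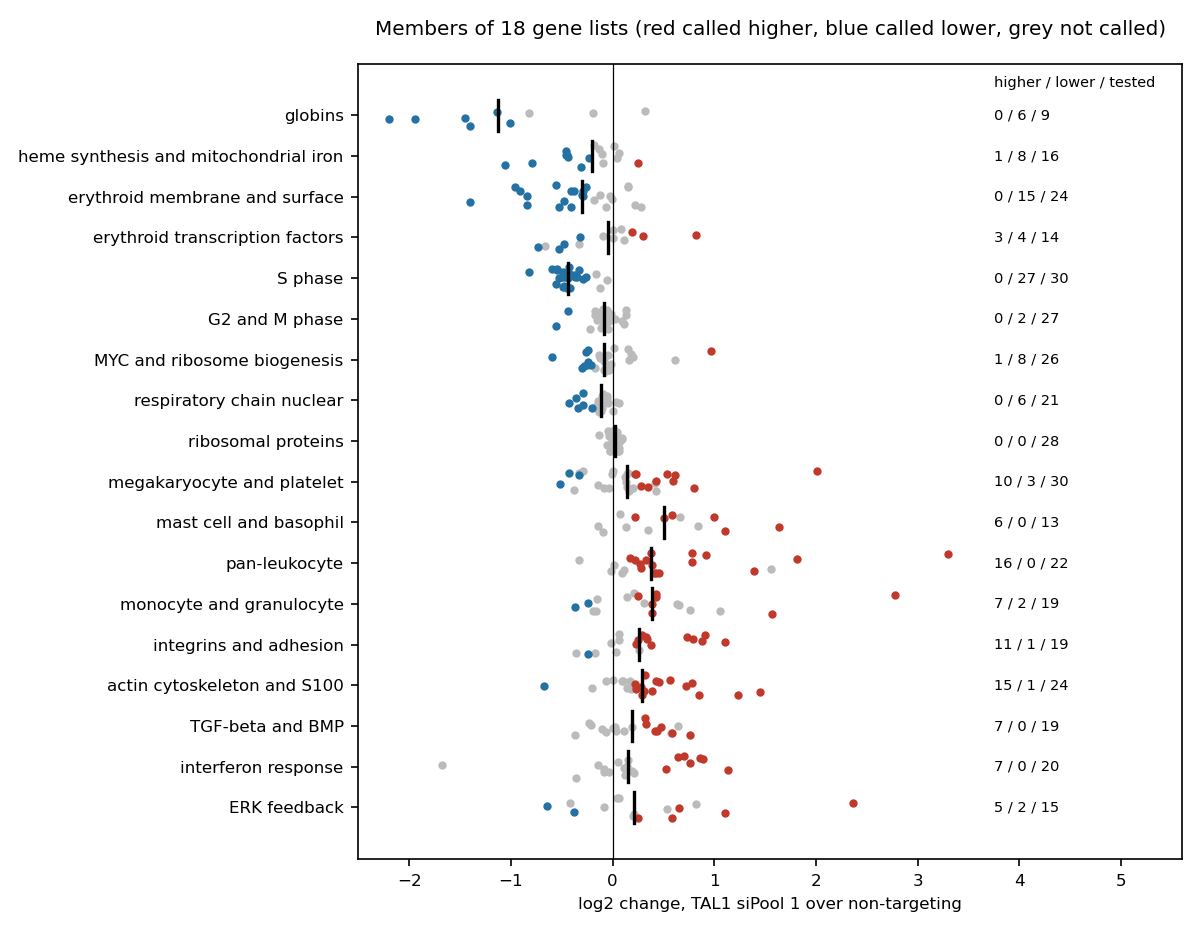
Log2 change with TAL1 siPool 1 over the non-targeting pool (x axis) for each tested member of 18 gene lists, with called members in red (higher) and blue (lower), the list median as a black bar and the counts higher / lower / tested at the right. S phase genes lie to the left of 0, most pan-leukocyte genes to the right, and ribosomal protein genes around 0.

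Signalling genes were mixed. Of 15 genes of ERK feedback, 5 rose and 2 fell (46.7% called, against 17.3% of all genes tested). PHLDA1 and CCND1 led the rises, ETV5, an ETS factor induced by ERK, rose by 0.66 ± 0.08, and DUSP2, a MAP kinase phosphatase, fell (-0.64 ± 0.11). The ERK rises numbered 3 without siPool 1 bio rep 2 or non-targeting bio rep 3, and the falls 1 without siPool 1 bio rep 3 or non-targeting bio rep 2 or 3. Of 16 JAK-STAT genes, 5 rose and 1 fell (37.5% called), with LIF first and the feedback inhibitor SOCS2 next (0.51 ± 0.09). The JAK-STAT fall was not called without siPool 1 bio rep 2 or non-targeting bio rep 2 or 3. Of 19 TGF-beta and BMP genes, 7 rose and 0 fell (36.8% called, median 0.19), with 2 falls without non-targeting bio rep 2. BMP6, a ligand of that family, stood at 37.4, 39.4 and 42 CPM in siPool 1 libraries, 25, 25.4 and 25.3 CPM in siPool 2 libraries and 20.6, 22 and 27.9 CPM in non-targeting libraries (log2 change 0.76 ± 0.10). The receptor TGFBR2 stood at 39, 39.1 and 40.1 CPM in siPool 1 libraries, 32.9, 26.9 and 27.6 CPM in siPool 2 libraries and 28.4, 29 and 27.6 CPM in non-targeting libraries (log2 change 0.48). Both were higher in every siPool 1 library than in any other HEL library. Of 21 AP-1 and immediate early genes, 2 rose, FOSL2 (0.65) and KLF10 (0.46), and 3 fell, with 1 fall without siPool 1 bio rep 3 or non-targeting bio rep 2. The share called in that list was 23.8%, against 17.3% of all genes tested.

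Interferon response genes rose in a minority. Of 20 tested, 7 were called higher and 0 lower (35% called, against 17.3% of all genes tested, median 0.15). The count was 3 without siPool 1 bio rep 2, 4 without non-targeting bio rep 1 and 2 without bio rep 2 in every group. RSAD2, the antiviral protein viperin, stood at 19.4, 18.1 and 18.1 CPM in siPool 1 libraries, 13, 15.1 and 13.8 CPM in siPool 2 libraries and 12.7, 11.3 and 11.6 CPM in non-targeting libraries. IFIT3, another antiviral protein, stood at 13.4, 14.2 and 12 CPM in siPool 1 libraries, 11, 9.21 and 7.17 CPM in siPool 2 libraries and 8.53, 7.64 and 8.19 CPM in non-targeting libraries. Both were higher in every siPool 1 library than in any non-targeting library. The log2 changes were 0.64 ± 0.12 for RSAD2 and 0.70 ± 0.14 for IFIT3, and both differed between the pools (adjusted p = 0.019 and 0.0111). The ubiquitin-like protein gene ISG15 (-0.08) did not pass. Of 18 genes of MHC and antigen processing, 3 rose and 1 fell (22.2% called, against 17.3% of all genes tested), with the peptide trimming enzyme ERAP1 at 0.47 ± 0.08. Those rises numbered 1 without siPool 1 bio rep 1 or non-targeting bio rep 1, and the fall was not called without siPool 1 bio rep 2 or 3 or non-targeting bio rep 1 or 2 and was joined by another without siPool 1 bio rep 1. Of 12 genes of the small interfering RNA machinery, 2 rose, TNRC6B (0.42 ± 0.08) and AGO3 (0.20), and 0 fell (16.7% called, near the 17.3% of all genes tested). AGO3 lost its call when any 1 of the 6 libraries was left out (adjusted p = 0.059 to 0.31).

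Of 25 cholesterol synthesis genes, 6 fell and 1 rose (28% called, against 17.3% of all genes tested, median -0.21), with ACAT2 at -0.49 ± 0.10. The cholesterol falls numbered 1 without non-targeting bio rep 3, 3 without siPool 1 bio rep 3 or non-targeting bio rep 2 and up to 9 in the other cases with 1 library left out. The cholesterol rise was not called without non-targeting bio rep 2 and was joined by another without non-targeting bio rep 3. Without the bio rep term 0 cholesterol genes were called in either direction, with ACAT2 at an adjusted p of 0.39. Of 20 glycolysis genes, 3 fell and 2 rose (25% called, against 17.3% of all genes tested). The largest fall called was PKLR, the pyruvate kinase of liver and red cells, at -1.31 with siPool 1 and -2.22 with siPool 2. The glycolysis rises numbered 0 without siPool 1 bio rep 2 or non-targeting bio rep 1 and 1 without siPool 1 bio rep 1 or non-targeting bio rep 2. Of 24 autophagy and lysosome genes, 6 rose and 1 fell (29.2% called), with the proteases CTSS (0.55 ± 0.07) and CTSA (0.63 ± 0.08) first. The lysosomal rises numbered 3 without non-targeting bio rep 1 or 3, and the fall was not called without siPool 1 bio rep 2 or 3 or non-targeting bio rep 2 or 3. Of 23 genes of the integrated stress and unfolded protein responses, 3 rose and 1 fell. Of 17 p53 targets, 2 rose and 1 fell. Of 18 apoptosis regulators, 3 rose and 2 fell. Of 15 HIF targets, 1 rose and 0 fell, and of 6 replication-dependent histone genes 1 rose and 0 fell. These 5 lists had 6.67% to 27.8% of members called, against 17.3% of all genes tested, and with 1 library left out their counts moved to 1 to 3 stress rises, 0 to 4 stress falls, 1 to 3 p53 rises, 0 to 4 p53 falls, 1 to 4 apoptosis rises, 1 to 3 apoptosis falls, 1 to 2 HIF rises and 0 to 1 histone rises.

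Several genes separated siPool 1 from siPool 2. CAPZA1, a subunit of the protein that caps actin filaments, stood at 144, 126 and 122 CPM in siPool 1 libraries, 449.9, 361 and 335 CPM in siPool 2 libraries and 437, 371 and 385 CPM in non-targeting libraries. MCRS1, a nuclear microspherule protein, stood at 42, 32.6 and 33 CPM in siPool 1 libraries, 91.8, 94.5 and 79.3 CPM in siPool 2 libraries and 84.4, 81.8 and 87.1 CPM in non-targeting libraries. FADS1, a fatty acid desaturase, stood at 72.2, 70.1 and 69.5 CPM in siPool 1 libraries, 137, 132 and 135 CPM in siPool 2 libraries and 130.1, 151 and 127 CPM in non-targeting libraries. In all 3 the siPool 1 libraries lay below every other HEL library, and the siPool 2 estimates were near 0 (-0.06 for CAPZA1, 0.07 for MCRS1 and -0.01 for FADS1). The log2 changes with siPool 1 were -1.61 ± 0.06 for CAPZA1, -1.24 ± 0.08 for MCRS1 and -0.94 ± 0.07 for FADS1, and RP11-421F16.3 was likewise lower with siPool 1 (-1.26) and not with siPool 2 (0.18, adjusted p of the difference = 3.90e-07). H1F0, a linker histone, stood at 157, 362 and 377 CPM in siPool 1 libraries, 351, 815 and 949 CPM in siPool 2 libraries and 300.2, 823 and 777 CPM in non-targeting libraries, so that bio rep 1 was low in every group and siPool 1 was lowest within each bio rep. The siPool 1 and non-targeting libraries of H1F0 overlapped. Its log2 change with siPool 1 was -1.06 ± 0.06, and its call was lost without the bio rep term (-1.08, adjusted p = 0.40). UHMK1, a kinase with a U2AF homology motif, had a log2 change of -0.76 ± 0.06 with siPool 1 and 0.19 with siPool 2.

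Ranking was limited to genes of at least 5 CPM on average with 1 sign of siPool 1 over non-targeting in all bio rep pairs. Among them, the 5 genes with the smallest adjusted p for a higher level with siPool 1 than with siPool 2 had negative siPool 2 estimates over the non-targeting pool. PLA2G4A, the cytosolic phospholipase A2, stood at 30.3, 31.6 and 32.1 CPM in siPool 1 libraries, 10.02, 8.39 and 9.19 CPM in siPool 2 libraries and 27.5, 28.7 and 31.7 CPM in non-targeting libraries. FAM136A, a mitochondrial protein, stood at 109, 75.8 and 76 CPM in siPool 1 libraries, 48, 39.8 and 36.8 CPM in siPool 2 libraries and 133, 80.9 and 86.9 CPM in non-targeting libraries. For both, the siPool 1 and non-targeting libraries overlapped and the siPool 2 libraries lay below all of them. The siPool 1 changes, 0.10 for PLA2G4A (adjusted p = 0.567) and -0.20 for FAM136A (adjusted p = 0.0691), did not pass, nor did that of the selenoprotein gene SELT (0.12). LIMA1, an actin-binding protein, and ESYT1, a tether between membranes, were a little higher with siPool 1 (0.33 and 0.25) and lower with siPool 2 (-0.80 and -0.52), and LIMA1 lost its call with siPool 1 when bio rep 2 was left out of every group (adjusted p = 0.14). Without the bio rep term LIMA1 (adjusted p = 0.35) and ESYT1 (0.054) were not called with siPool 1. FAM136A passed in the same direction without non-targeting bio rep 2 (adjusted p = 0.035). The siRNA sequences of both pools were not used here, so their part in these differences was not tested.

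**Figure D5:**
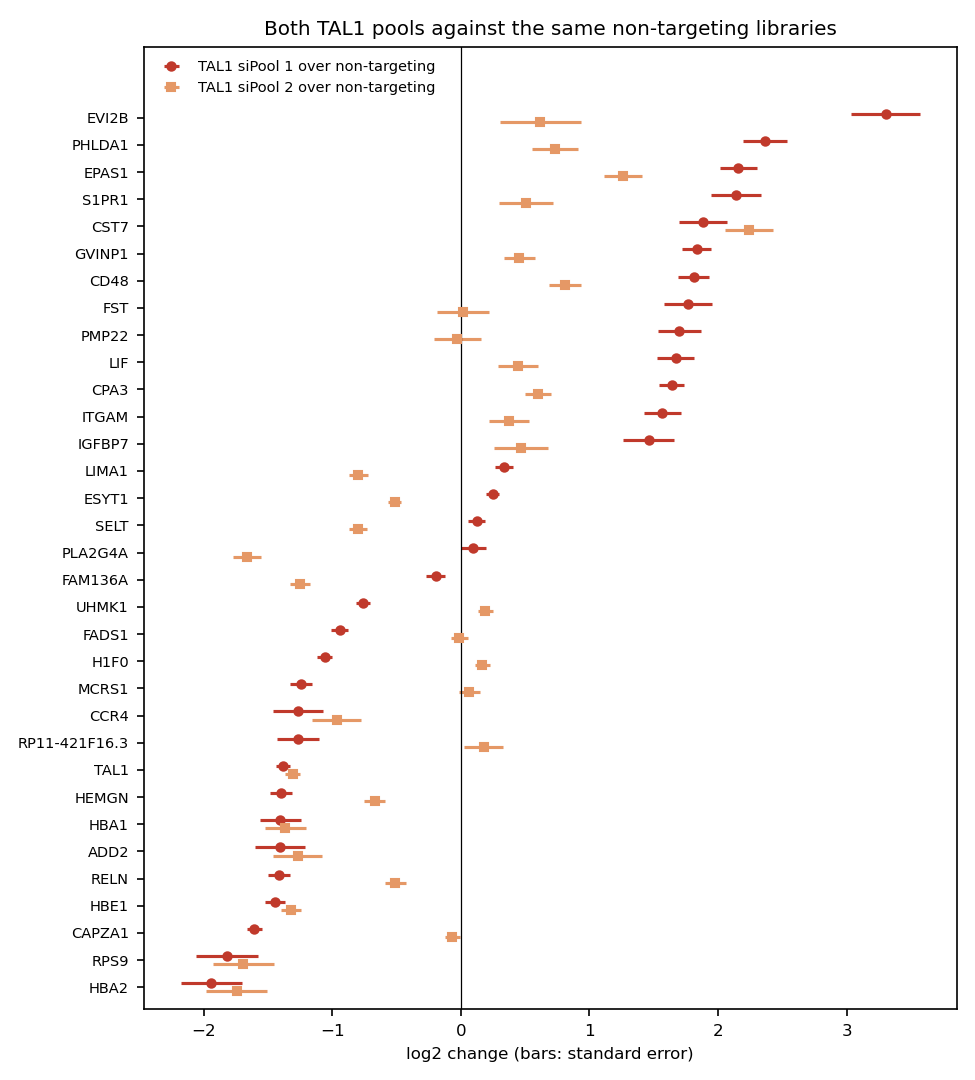
Log2 change over the same 3 non-targeting libraries with TAL1 siPool 1 (red circles) and TAL1 siPool 2 (orange squares) for 33 genes, with standard errors as bars. TAL1, HBE1, HBA1 and ADD2 lie below 0 with both pools, whereas CAPZA1, MCRS1, FST and PMP22 are displaced from 0 with siPool 1 and PLA2G4A and FAM136A with siPool 2.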

How the data were processed

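Per the labels, poly(A) RNA of electroporated HEL cells was sequenced in 9 libraries. Per the submitters' processing notes, reads were aligned to hg19 with STAR after FastQC and counted with featureCounts; versions and the strand setting are not stated there. The deposited HEL table holds raw counts per gene. Counts of the 9 libraries were fitted in edgeR 4.0.16 (R 4.3.3; TMM, filterByExpr, robust quasi-likelihood, group plus bio rep number, 4 residual degrees of freedom), with Benjamini-Hochberg adjustment over 16688 genes and calls under 0.05. Libraries held 15869619 to 27029836 counts. All columns mapped to samples, and 289 symbols on more than 1 line were kept apart by identifier. The bio rep term is part of how this comparison was defined. Deviations from group means correlated at 0.36 to 0.77 between libraries of the same number, but also at 0.34 to 0.6 between numbers 2 and 3, so these data set apart bio rep 1 and do not show that numbers 2 and 3 pair libraries. Without the term 704 genes were called, against 2888 with it. The code was tested on simulated data with planted changes in siPool 1. It recovered 64.2% of 1.5-fold, 73.1% of 2-fold and 74.2% of 3-fold changes, with 1 false call.

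Named genes were TAL1, PHLDA1 and EVI2B, the 12 largest rises and falls among called genes of at least 5 CPM with 1 sign in all pairs, up to 4 called members of each of 39 gene lists by adjusted p, and 5 genes each way between the pools under the same CPM and sign rules. Further list members complete a count or show an uncalled marker and were chosen after their values were seen. The members and lists were chosen with earlier results of these data known. PECAM1 was not analysed here, some list members counted in the lists are not reported here by name, and TIGAR was matched as C12orf5. Alternatives were DESeq2 1.42.0, RLE scaling, total library size, other count filters, no bio rep term, the 6 libraries alone, and libraries or bio reps left out.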

Additional observations from a re-analysis of the deposited data

Results flagged for a closer look

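The 10 genes below were picked out because the effect of siPool 1 and that of siPool 2, each over the non-targeting pool, differed in the direct test between the pools (edgeR, all with adjusted p under 0.05); each value is the log2 difference siPool 1 minus siPool 2. They were taken as the 5 rises and 5 falls with the smallest adjusted p in that test. PLA2G4A differed by 1.76, LIMA1 by 1.13, FAM136A by 1.05, SELT by 0.922 and ESYT1 by 0.763, and in each of these 5 the siPool 2 estimate over the non-targeting pool was negative. CAPZA1 differed by -1.54, MCRS1 by -1.31, H1F0 by -1.22, UHMK1 by -0.95 and FADS1 by -0.93, and in each of these 5 the siPool 1 estimate over the non-targeting pool was negative.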

How the results depend on the processing

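The TAL1 log2 change was -1.42 to -1.35 over all alternatives and stayed called in each. Without the replicate block, 704 genes were called between siPool 1 and the non-targeting pool, 428 higher and 276 lower, 176 between siPool 2 and the non-targeting pool and 461 between siPool 1 and siPool 2. With 1 library or 1 bio rep number left out, the counts were 1507 to 2761 between siPool 1 and the non-targeting pool (812 to 1393 higher, 695 to 1428 lower), 731 to 2192 between siPool 2 and the non-targeting pool and 970 to 2514 between siPool 1 and siPool 2. The lowest values in these ranges came without bio rep 2 in every group. Counts between siPool 2 and the non-targeting pool were also 967 without non-targeting bio rep 1 and 795 without non-targeting bio rep 3, and counts between the pools 1348 without siPool 1 bio rep 2 and 1568 without siPool 1 bio rep 3. The cause was not tested; settings with a library left out also hold fewer libraries. DESeq2 called 2696, RLE scaling 2881, total library size 2931, no count filter 2757, a mean of at least 5 CPM 2821 and the 6 libraries alone 2956 genes between siPool 1 and the non-targeting pool. Of 154 named genes, 0 changed direction under any alternative; 64 lost their call without the replicate block, 0 to 2 under other scalings, filters, DESeq2 or the 6 libraries alone, and 7 to 39 with a library or bio rep left out. Genes under about 5 CPM, such as HBZ, carry few counts, and their fold changes are the least precise.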
